A study of Drosophila melanogaster with 9 samples.

Results

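miR-8-3p and miR-8-5p (dme-miR-8-3p and dme-miR-8-5p in the files' naming) are the mature strands cut from the arms of the miR-8 hairpin. They were chosen by name from the deposited miRNA table and are 2 of its 467 miRNAs. The table covers 9 small RNA libraries of the adult midgut, all from Drosophila melanogaster of the Oregon-R strain with a wild-type genotype, 3 per group. Mock flies had sucrose and were taken at day 0, when 4 to 5 days old. The Pe day 0 group had the same age and received the treatment that the labels write as Pe, without spelling it out. The Pe day 3 group received Pe too and was 7 to 8 days old at sampling, so age differs together with time. Nothing in the labels tells whether the samples within a group are separate pools, so p-values reflect only the spread among these samples, possibly technical. The study asked how midgut regeneration starts and how it ends.

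As background, a miRNA hairpin is cut into a duplex of which mostly 1 strand is kept by an Argonaute protein, while the other strand is largely lost. In the fly the 3p strand is the known active form of miR-8, and the 5p strand was long written as its star strand. miR-8 is the fly relative of the vertebrate miR-200 family, which represses factors of the epithelial to mesenchymal transition. In the adult fly midgut miR-8 is known to push enteroblasts, the progenitors that arise from intestinal stem cells, towards terminal differentiation by lowering the factor escargot. In the larval fat body it is known to promote growth through the insulin pathway by lowering u-shaped. The hairpin, 87 nucleotides long, lies on the plus strand of chromosome arm 2R in Ensembl's annotation of the BDGP6 build. It lies within an exon of both annotated transcripts of lncRNA:CR43650 on the same strand, which RefSeq also lists as pri-mir-8. The nearest other miRNA hairpin of the annotation on this arm is 63705 bp away. Its sequence is not shown here.

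Libraries held 224873 to 1238105 miRNA reads, as recovered from the deposited values. miR-8-3p had 1234 to 5427 reads per library and miR-8-5p had 53 to 801, so the 5p arm carries the larger counting error. A single miRNA, miR-956-3p, took 69.8% to 80.2% of the reads of a library and thereby sets much of the denominator of every other value. The defining miRNAs of the midgut list were present, with miR-263a-5p at 30625 to 65957 RPM (reads per 1000000 miRNA reads) and miR-281-2-5p at 394 to 1465 RPM. miR-281-3p was not counted in that list. Of its 4 arms, limma called 1 lower at Pe day 0 against mock, where it called 4.11% of all miRNAs tested. At Pe day 3 against mock limma called 2 lower, where it called 17.8% of all. The neuronal list (2 arms) and the testis list (28 arms) were listed at 0 in every library, and the early embryo list summed to 0 to 24.8 RPM with 2 of 13 arms above 0. The muscle list had 2 of 4 arms above 0, and its sum was almost all miR-1-3p, with miR-133-3p at 0 to 1.62 RPM. That sum lay at 267 to 382 RPM at Pe day 3 but at 64.2 to 139.7 RPM in both other groups. So miR-1-3p moves with every comparison that involves Pe day 3. The ovary list had 5 of 12 arms above 0 and summed to 233 RPM in Pe day 0 replicate 3, against 0 to 27.5 RPM in the other libraries. The part of these other tissues in the results below was not tested. In bulk tissue fewer cells of a type and less RNA per cell cannot be told apart.

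miR-8-3p was among the most abundant miRNAs of the midgut. As deposited it averaged 4543 RPM over the 9 libraries, the 8th highest mean, and its rank within a library lay between 7 and 10. Its neighbours in that order were bantam-3p, a growth and anti-apoptotic miRNA, at a mean of 4828 RPM and miR-34-5p at 4065 RPM. The place of miR-34-5p comes from averaging over groups, since its group means were 1112 RPM in mock, 2095 RPM at Pe day 0 and 8987 RPM at Pe day 3. miR-8-5p averaged 350.5 RPM and ranked 33rd, with a rank of 25 to 38 within a library. Its neighbours were miR-279-3p at 399 RPM and miR-275-3p at 324 RPM. The ranges of all these neighbours over the libraries overlapped those of the arm beside them.

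Levels were compared after libraries were scaled by the trimmed mean of M values (TMM). In scaled RPM, miR-8-3p stood at 5666, 4691 and 4573 in mock replicates 1 to 3. It stood at 4212, 4230.2 and 4098 at Pe day 0, and at 4177, 3909.7 and 5128 at Pe day 3. All Pe day 0 libraries lay below all mock libraries, though not in RPM as deposited, where Pe day 0 replicate 3 (4383) lay above mock replicates 1 (4244) and 3 (4357). The Pe day 3 libraries overlapped those of both other groups. The scaled group means were 4976 ± 600.0 for mock, 4405 ± 640.3 for Pe day 3 and 4180.0 ± 71.4 for Pe day 0 (SD, n = 3 each), in that order from high to low. In RPM as deposited the means were 4983 for Pe day 3, 4587 for mock and 4059 for Pe day 0. The order of mock and Pe day 3 thus depends on the scaling.

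miR-8-5p differed in its order of groups. It stood at 268, 260.5 and 280.3 scaled RPM in mock replicates 1 to 3. It stood at 489, 384 and 605 at Pe day 0, and at 318, 334 and 197 at Pe day 3. Every Pe day 0 library lay above every mock and every Pe day 3 library, and the mock and Pe day 3 libraries overlapped. The order of the means was 493 ± 110.5 for Pe day 0, 283 ± 74.7 for Pe day 3 and 269.5 ± 10.01 for mock (SD, n = 3 each), and the means of Pe day 3 and mock differed by less than the spread within Pe day 3. In RPM as deposited the value of Pe day 3 replicate 2 (423) lay within the Pe day 0 range of 377 to 647.

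**Figure D1:**
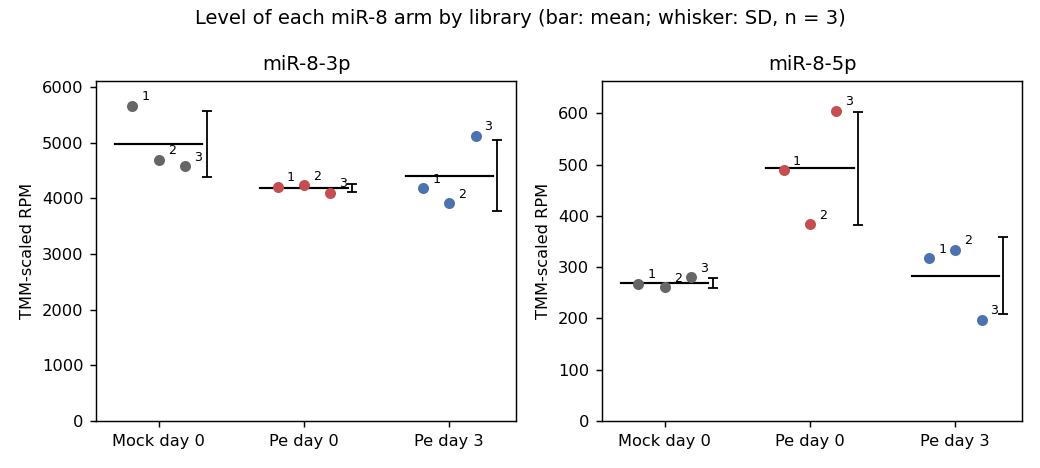
Level of miR-8-3p (left) and miR-8-5p (right) in TMM-scaled RPM, with 1 point per library numbered by replicate, a bar at the group mean and a whisker for the SD (n = 3). The 5p arm is at 384 to 605 in the Pe day 0 libraries and at 197 to 334 in the others, while the 3p arm stays between 3909.7 and 5666 throughout.

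The question of the Pe day 0 against mock comparison is what differs at the first stage, in flies of 1 age. For miR-8-5p the log2 change was 0.84 ± 0.27 SE, or 1.79-fold higher, and 0.67 above the median change of the 73 miRNAs tested, which was 0.17 (limma adjusted p = 0.061, 95% interval 0.28 to 1.39). For miR-8-3p the log2 change was -0.24 ± 0.21 SE (limma adjusted p = 0.518, 95% interval -0.66 to 0.17), or 0.41 below the median change. Neither arm passed the threshold of an adjusted p under 0.05, which 3 of the 73 miRNAs (4.11%) passed. Groups that did not overlap, as for both arms, were common: 21.9% of miRNAs were higher in all Pe day 0 libraries and 11% lower in all. In the authors' deposited table, whose first set of changes matches this comparison, miR-8-5p had a log2 change of 0.69 with an adjusted p of 0.0614 and miR-8-3p one of -0.44 with an adjusted p of 0.0982, where 3.28% of 61 miRNAs passed.

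miR-8-5p at Pe day 0 was not called in the fit reported. It passed in 3 of 20 alternatives, which changed the samples, the block or the filter. A filter of 100 RPM gave a limma adjusted p of 0.0365. Mock and Pe day 0 libraries with the same replicate number deviated together. With the number as a block in a model of only these groups, chosen after seeing the data, the log2 change was 0.66 (limma adjusted p = 0.0230). The same groups without the block gave 0.66 and a limma adjusted p of 0.0643, which is no call. The block in the model of all libraries gave a limma adjusted p of 0.0717. Without Pe day 0 replicate 3, which had the highest miR-8-5p level and the highest ovary sum, the log2 change was 0.50 (limma adjusted p = 0.393), although the other Pe day 0 libraries were still above all mock libraries. Pe day 3 replicate 1 is in neither of these groups and enters here through the spread, the scaling, the filter and the adjustment. Without it the change was 0.84 and the limma adjusted p 0.0250. Over the 20 alternatives tried the limma adjusted p lay between 0.0230 and 0.393.

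Pe day 3 against Pe day 0 compares the stages of the treatment. miR-8-5p had a log2 change of -0.80 ± 0.27 SE (limma adjusted p = 0.0696, 95% interval -1.36 to -0.25), or 1.75-fold lower, against a median change of 0.010 over all miRNAs tested. miR-8-3p had a log2 change of 0.066 ± 0.21 SE (limma adjusted p = 0.796, 95% interval -0.35 to 0.48), and its sign turned when libraries were scaled to the reads outside the 5 most abundant miRNAs, and without Pe day 3 replicate 3. Again neither passed, while 2.74% of miRNAs did, and 13.7% were lower in every Pe day 3 library than in every Pe day 0 library, as miR-8-5p was. Leaving out Pe day 3 replicate 1 brought miR-8-5p past the threshold (log2 change -0.90, limma adjusted p = 0.0345) and so did leaving out Pe day 0 replicate 2 (-0.97, limma adjusted p = 0.0472). The limma adjusted p lay between 0.0345 and 0.388 over the 20 alternatives.

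Against mock, the Pe day 3 levels were close for both arms, in flies that also differed in age. miR-8-5p had a log2 change of 0.034 ± 0.27 SE (limma adjusted p = 0.936, 95% interval -0.52 to 0.59), and its sign turned in 9 of 20 alternatives. miR-8-3p had one of -0.18 ± 0.21 SE (limma adjusted p = 0.605, 95% interval -0.60 to 0.24), and its sign turned with RPM as deposited. Of all miRNAs 17.8% passed in this comparison. The authors' deposited table gave log2 changes of -0.083 for miR-8-5p (adjusted p = 0.922) and -0.32 for miR-8-3p (adjusted p = 0.373), where 13.1% of 107 miRNAs passed.

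Asked in 1 test whether the 3 groups differed at all, miR-8-5p passed limma's threshold (moderated F, adjusted p = 0.0440) among 13.7% of the 73 miRNAs, and miR-8-3p did not (adjusted p = 0.608). The pattern behind it is the single high group, Pe day 0, between a low mock and a low Pe day 3 group. That call was lost in 11 of 18 alternatives. It ended without any mock library, without Pe day 0 replicate 1 or 3 and without Pe day 3 replicate 2 or 3, with adjusted p from 0.0703 to 0.316 in those fits, and it also ended under every other scaling.

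The ratio of reads between the arms compares them within a library and does not depend on how libraries are scaled. Mock replicates 1 to 3 held 21.2, 18.01 and 16.3 reads of miR-8-3p for each read of miR-8-5p. Pe day 0 replicates held 8.61, 11.02 and 6.78, and Pe day 3 replicates held 13.1, 11.7 and 25.98. All Pe day 0 libraries had a lower ratio than all others, while the mock and Pe day 3 libraries overlapped.

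Put as a share of the reads of the hairpin, the 5p arm made up 4.51% (95% Wilson interval 3.84 to 5.30), 5.26% (4.36 to 6.33) and 5.78% (4.89 to 6.80) in mock replicates 1 to 3. At Pe day 0 it made up 10.4% (9.41 to 11.5), 8.32% (6.96 to 9.92) and 12.9% (12.1 to 13.7). At Pe day 3 it made up 7.07% (6.28 to 7.95), 7.88% (6.81 to 9.09) and 3.71% (2.84 to 4.82). The intervals cover counting error only, since reads without molecular identifiers are not independent molecules. No interval of a Pe day 0 library reached that of a mock library, while that of Pe day 0 replicate 2 overlapped those of Pe day 3 replicates 1 and 2. The deepest library (Pe day 0 replicate 3) had the highest share and the shallowest (Pe day 3 replicate 3) the lowest. Within Pe day 0 the share rose with depth, from 8.32% at 296702 reads to 10.4% at 809842 and 12.9% at 1238105. Within mock the deepest library, replicate 1 with 707747 reads, had the lowest share. Pe day 0 replicate 2 was shallower than every mock library and had a higher share than each of them. The part of depth in these shares was not tested.

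**Figure D2:**
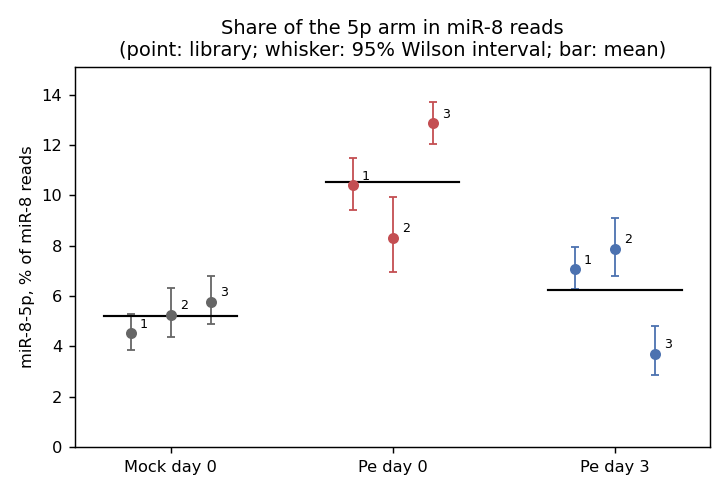
Share of miR-8-5p in all miR-8 reads of a library in percent, with 1 point per library numbered by replicate, a whisker for the 95% Wilson interval of counting error and a bar at the group mean. The Pe day 0 libraries are at 8.32% to 12.9%, the mock libraries at 4.51% to 5.78%, and Pe day 3 spans 3.71% to 7.88%.

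For the tests of the ratio 4.02 RPM was added to both arms, in RPM as deposited. So taken, the mean log2 ratio of the 3p to the 5p arm was 4.18 ± 0.19 in mock, 3.10 ± 0.35 at Pe day 0 and 3.97 ± 0.62 at Pe day 3 (SD, n = 3 each). From mock to Pe day 0 it changed by -1.08 ± 0.36 SE, a 2.11-fold lower ratio (95% interval -1.88 to -0.29). In limma over the 21 hairpins with both arms tested under matching names this gave an unadjusted p of 0.0129 and an adjusted p of 0.136. That unadjusted p was the smallest of the 21, barely below that of miR-958 (limma unadjusted p = 0.0130, adjusted p = 0.136). Arms listed under merged or copy-numbered names (miR-281, miR-276a and miR-2b) formed no hairpin here. limma called 0 of 21 hairpins (0%) in this comparison, with 4 (19%) at an unadjusted p under 0.05. The exact two-sided permutation test gave p = 0.1, the smallest that 3 against 3 samples allow, and 9.52% of hairpins had a ratio lower in every Pe day 0 library than in every mock library. Of 18 alternatives, 5 brought this ratio past limma's threshold, with adjusted p from 0.00410 to 0.319. All had a negative change, from -1.26 to -0.91. The replicate number as a block in the model of all libraries gave a limma adjusted p of 0.144, which is no call. The block in a model of only these groups, chosen after seeing the data, gave a limma adjusted p of 0.00410. That model without the block gave 0.0192, and the model of all libraries without Pe day 3 replicate 3 gave 0.0327.

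From Pe day 0 to Pe day 3 the log2 ratio changed by 0.87 ± 0.36 SE (limma adjusted p = 0.0811, 95% interval 0.077 to 1.67, exact permutation p = 0.1). Here 14.3% of hairpins passed limma's threshold, 42.9% had, like miR-8, an unadjusted p under 0.05, and 33.3% had a ratio higher in every Pe day 3 library, so these counts do not set miR-8 apart from the other hairpins. Pe day 3 replicate 3 had only 53 reads of miR-8-5p, and without it the change was 0.52 (limma adjusted p = 0.249). Leaving out Pe day 3 replicate 1 instead gave 1.01 and a limma adjusted p of 0.0457. Between mock and Pe day 3 the change was -0.21 ± 0.36 SE (limma adjusted p = 0.647, 95% interval -1.004 to 0.59, exact permutation p = 0.6), where 14.3% of hairpins passed, and its sign turned without Pe day 3 replicate 2. The exact permutation test for any difference among the 3 groups, over 1680 arrangements of the 9 samples, gave p = 0.05 and so did not fall under the threshold, and 28.6% of the hairpins had a p of 0.05 or less. limma's moderated F gave miR-8 an adjusted p of 0.0996, with 19% of hairpins called. Without Pe day 3 replicate 3 that exact p was 0.00714, and 0.0536 to 0.179 without any other library.

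The summed level of both arms, most of it the 3p arm, had its highest mean in mock when scaled. The sum was 5246 ± 598 scaled RPM in mock, 4673 ± 50.7 at Pe day 0 and 4688 ± 566 at Pe day 3 (SD, n = 3 each). The means of Pe day 0 and Pe day 3 differed by less than the spread within either. In RPM as deposited the sum was 4445, 5445 and 4625 in mock replicates 1 to 3. At Pe day 3 it was 4174, 5371 and 6359, so the highest sum was there.

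In its degree of arm bias miR-8 was in the middle of the hairpins. Over all libraries its 3p arm exceeded its 5p arm by 3.75 on the log2 scale, the 8th strongest bias of 21. Its neighbours were miR-10, whose 5p arm dominates by 3.83, and bantam, whose 3p arm dominates by 3.599. The 3p arm was the more abundant in 15 of the 21 hairpins. From mock to Pe day 0 the share of the scarcer arm was higher in 11 hairpins and lower in 10, with a median log2 change of -0.075 in the ratio of the abundant to the scarce arm. The change of miR-8 was the second most negative, after that of miR-184 at -1.78, a hairpin singled out after its values were seen. The scarce arm of miR-184, miR-184-5p, had a mock mean of only 15.4 scaled RPM, near the floor of the filter.

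**Figure D3:**
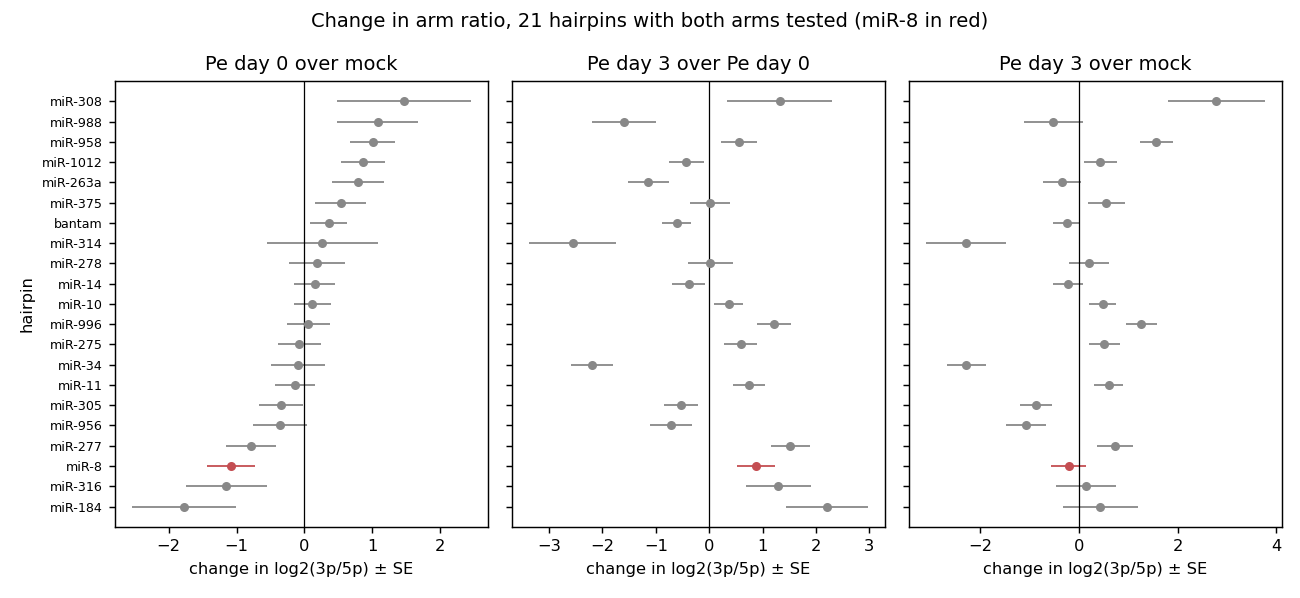
Change in log2(3p/5p) with its standard error from limma for each of 21 hairpins, in the 3 comparisons, ordered by the change from mock to Pe day 0, with miR-8 in red. miR-8 is at -1.08, 0.87 and -0.21 in the panels from left to right.

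The arms also differed from each other in their pattern over the 9 libraries, with a Pearson r of -0.67 between their log2 scaled RPM. That placed each arm near the end of the 72 other miRNAs when ordered by likeness to its partner. These correlations are descriptions, since the libraries share their scaling and their depth differences. Most like miR-8-3p were miR-281-2-5p (r = 0.70), bantam-3p (0.69), miR-281-1-5p (0.65) and miR-10-5p (0.60). The miR-281 copies have closely related mature strands, so reads could be split between them. miR-281-2-5p had means of 1371 ± 382, 668 ± 231 and 661 ± 76.7 scaled RPM in mock, Pe day 0 and Pe day 3 (SD, n = 3 each).

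Most like miR-8-5p were miR-995-3p (r = 0.91), miR-184-5p (0.90), miR-317-3p (0.83) and miR-9c-5p (0.79). miR-995-3p had means of 172 ± 39.2, 268 ± 69.4 and 173 ± 62.2 scaled RPM in mock, Pe day 0 and Pe day 3, and miR-184-5p, the scarce arm of miR-184, had means of 15.4 ± 5.53, 47.4 ± 24.5 and 20.3 ± 17.9 (SD, n = 3 each). miR-317-3p, of the miR-277 cluster, had means of 2066 ± 607, 3737 ± 1145 and 2659 ± 941. All 4 had their highest mean at Pe day 0, as miR-8-5p had, which their choice by likeness to it largely fixed.

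In a list of miRNAs with known roles in midgut progenitors and epithelium, limma called arms in 1 of the 3 comparisons, Pe day 3 against mock. The list was chosen with earlier results of these data known, so its calls are a description and no independent support. The list held miR-8, bantam (intestinal stem cell growth), miR-305 and its neighbour miR-275, miR-277, miR-263a (sodium channels), let-7 and miR-958, with 15 of 16 arms tested. From mock to Pe day 0 limma called 0 of 15 (4.11% of all miRNAs tested), with 6 at an unadjusted p under 0.05 (27.4% of all) and 0 called by limma voom, and the median log2 change was 0.23 against 0.17 over all miRNAs tested. miR-8-5p had the largest log2 change of the list there, followed by miR-277-5p at 0.83 ± 0.39 SE. From Pe day 0 to Pe day 3 limma again called 0 of 15 (2.74% of all), with 2 at an unadjusted p under 0.05 (17.8% of all) and 0 called by limma voom, and a median of 0.066 against 0.010. Those 2 were miR-8-5p and miR-277-5p, at -1.25 ± 0.39 SE, the scarcer arms of their hairpins. Between mock and Pe day 3, limma called miR-275-3p (log2 change 0.89, adjusted p = 0.0173), miR-305-5p (0.79, adjusted p = 0.0372) and miR-958-3p (0.76, adjusted p = 0.0372) higher. It called miR-958-5p lower (-0.81, adjusted p = 0.0162). Neither miR-8 arm was among these 4 of 15 arms, in a comparison where 17.8% of all miRNAs tested were called, and the list had a median of 0.034 against 0.21 over all. limma voom called 3 of the 15 there.

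**Figure D4:**
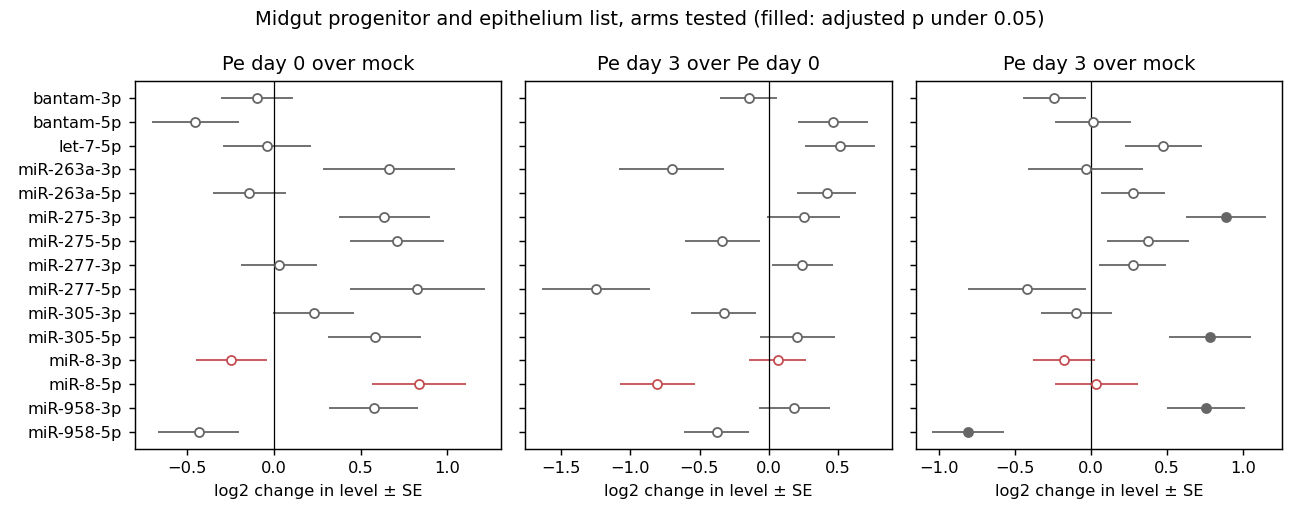
Log2 change in level with its standard error from limma for the 15 arms tested of the midgut progenitor and epithelium list, with the miR-8 arms in red and filled points for an adjusted p under 0.05. miR-8-5p is at 0.84, -0.80 and 0.034 in the panels from left to right and miR-8-3p at -0.24, 0.066 and -0.18.

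**Figure D5:**
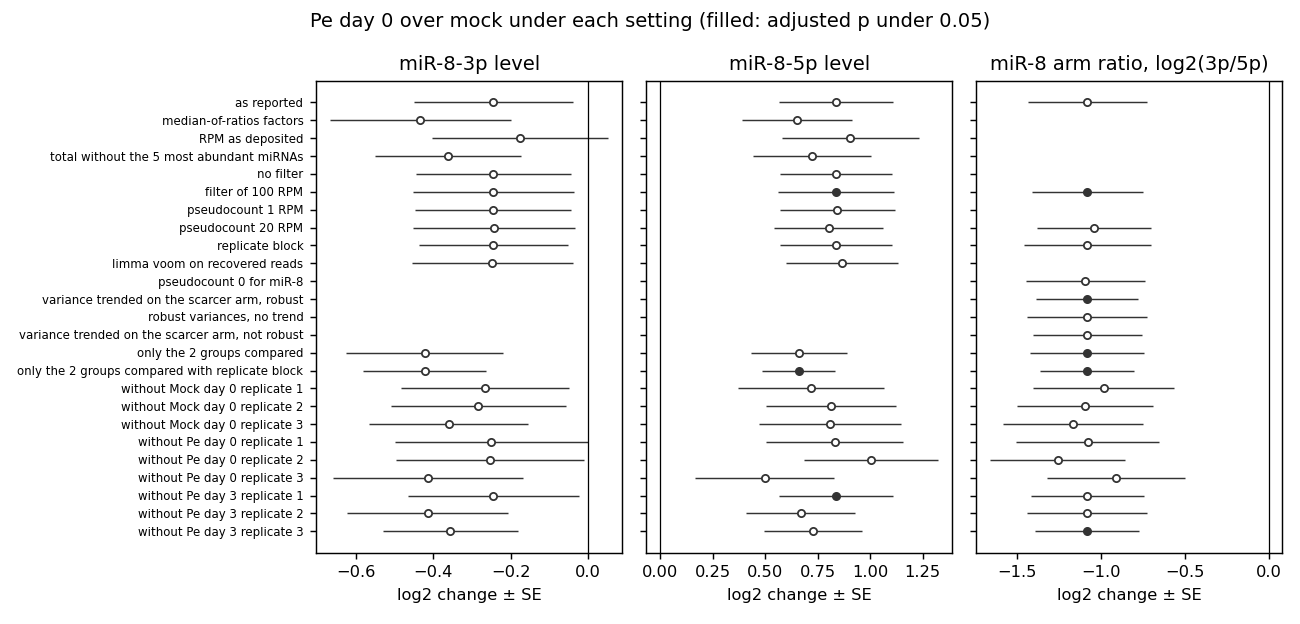
Log2 change from mock to Pe day 0 with its standard error for miR-8-3p, miR-8-5p and their ratio, under the settings reported and each alternative, with filled points for an adjusted p under 0.05. The change lies between -0.43 and -0.18 for miR-8-3p, between 0.50 and 1.003 for miR-8-5p and between -1.26 and -0.91 for the ratio, over the alternatives tried.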

How the data were processed

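TRIzol total RNA, 2 µg per sample, went into TruSeq small RNA libraries, per the labels' protocols. The deposited expression table holds RPM per library, reads per 1000000 miRNA reads. Its name mentions miRge. Aligner, database and build are not given in the sources used here. A second table, of the authors' comparisons, has deposited mean signal, log2 fold changes, Wald score and p-values, and its headers, which do not name the contrasts, are those of DESeq2 (version 1.22.0, per the submitters' processing notes). Its sets of changes matched Pe day 0 over mock and Pe day 3 over mock to within 0.033 and 0.045 over 47 miRNAs.

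Within a library all RPM values are multiples of 1 step, the smallest listed value being 2 reads. The reads so recovered gave depths, TMM factors (0.749 to 1.27), shares and the input of limma voom. No other count model was run. miRNAs with at least 20.1 RPM (10 reads at the median depth of 497997) in 3 libraries were tested, 73 in all, as log2(scaled RPM + 4.02), which understates changes of scarce miRNAs. limma 3.58.1 in R 4.3.3 fitted all 9 libraries without a block (6 residual degrees of freedom), with trended robust variances for levels and limma's default variances for arm ratios, and Benjamini-Hochberg adjustment over all features. The default for ratios follows the design as written, which named no trend, and was settled with the trended result known. Alternatives were other scalings, filters, pseudocounts and variance models, limma voom, a replicate block, only the groups compared, and leaving out each library. Functions were tested on simulated data. Same-numbered libraries deviated together for mock and Pe day 0 (r of 0.24 to 0.43 in 3 of 3 pairs). An unlike-numbered pair, mock replicate 1 and Pe day 0 replicate 3, had an r of 0.11. An r above 0.1 was found in 2 of 3 same-numbered pairs of Pe day 0 and Pe day 3. For mock and Pe day 3 it was found in 0 of 3. The labels do not say that the numbers pair samples, and whether they do was not tested. Members and lists were chosen with earlier results of these data known. Other miRNAs were named for likeness to a member (the 4 highest r for each), for place beside it in an order, or as list members.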

Additional observations from a re-analysis of the deposited data

How the results depend on the processing

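The direction of miR-8-3p and miR-8-5p from mock to Pe day 0, and of their ratio from mock to Pe day 0 and on to Pe day 3, was the same in every alternative tried. The cause of the changes below was not tested. miR-8-5p from mock to Pe day 0 passed the threshold with a filter of 100 RPM (log2 change 0.84) and with the replicate block in only these groups (0.66), and spanned 0.50 to 1.003 when each library was left out. Its change from Pe day 0 to Pe day 3 spanned -0.98 to -0.57 without a library. The adjusted F p of miR-8-5p was 0.0544 with median-of-ratios factors, 0.138 with RPM as deposited, 0.0639 scaled to the reads outside the top 5 miRNAs, 0.103 with no filter, and 0.0236 to 0.316 without a library. The change of miR-8-5p from mock to Pe day 3 was -0.12 with median-of-ratios factors, -0.17 with the total without the 5 most abundant, -0.10 with only the groups compared, with or without the block, and -0.31 to 0.15 without a library. miR-8-3p stood at 0.10 from mock to Pe day 3 with RPM as deposited, and from Pe day 0 to Pe day 3 at -0.019 with the total without the 5 most abundant and at -0.057 to 0.11 without a library. The arm ratio from mock to Pe day 0 (-1.08) passed with a filter of 100 RPM, with only the groups compared, with or without the block, and with variances trended on the scarcer arm and robust, but not with trended variances that were not robust (adjusted p = 0.0544). It spanned -1.26 to -0.91 without a library. The ratio from Pe day 0 to Pe day 3 (0.87) passed with trended robust variances and spanned 0.52 to 1.09 without a library, and the ratio from mock to Pe day 3 spanned -0.56 to 0.0087. The exact p among the 3 groups spanned 0.00714 to 0.179 without a library. The trended and robust variances, and the block in only the groups compared, were chosen after seeing the data. Under the replicate block in all 9 libraries no call of either arm or of the ratio changed, with an exact p of 0.139 for the ratio among the groups when permuted within a number. Mock and Pe day 3 numbers had an r of -0.025 to 0.080 and Pe day 0 and Pe day 3 numbers of -0.26 to 0.22. The number of miRNAs called went from 3 to between 0 and 13 for Pe day 0 over mock, from 2 to between 2 and 7 for Pe day 3 over Pe day 0, from 13 to between 4 and 15 for Pe day 3 over mock, and from 10 to between 3 and 19 for any difference. Depth limits the 5p arm most, with 53 reads in the shallowest library.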

Other observations

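The growth, fat body and metabolism list, tissues and processes in which miR-8 is also known to act, held miR-8, bantam, miR-14, miR-278, miR-33, miR-277, miR-305, miR-9a and miR-276a, with 15 of 17 arms tested. The merged entry miR-276a-5p/276b-5p was not counted in it. This list too was chosen with earlier results of these data known. limma called 0 of 15 from mock to Pe day 0, where it called 4.11% of all miRNAs tested, with 4 at an unadjusted p under 0.05 (27.4% of all) and 0 called by limma voom. It called 0 of 15 from Pe day 0 to Pe day 3 (2.74% of all), with 2 at an unadjusted p under 0.05 (17.8% of all) and 0 called by limma voom. From mock to Pe day 3, where it called 17.8% of all, it called 1 higher, miR-305-5p, as in the progenitor list, which shares 4 of its hairpins. The list medians were 0.23, 0.010 and 0.034 on the log2 scale, against 0.17, 0.010 and 0.21 over all miRNAs tested.

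The miRNA least like miR-8-3p over the 9 libraries was miR-1012-3p, a mirtron product, with a Pearson r of -0.95, singled out after its value was seen. It had means of 171 ± 48.5, 309 ± 35.2 and 279 ± 94.2 scaled RPM in mock, Pe day 0 and Pe day 3 (SD, n = 3 each). The miRNA least like miR-8-5p was bantam-5p (r = -0.87), the scarce arm of bantam, at 438 ± 83.0, 321 ± 73.5 and 439 ± 51.4. These values describe these libraries and have no test.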
